A study of Mus musculus with 6 samples.

Results

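A set of 10 genes of the mTOR kinase system is described here: the inhibitor Deptor, the kinase Mtor, the complex subunits Mlst8, Rptor, Akt1s1 and Rictor, and the upstream regulators Tsc1, Tsc2, Rheb and Ddit4. They were found by an exact match of the gene symbol in each of the 6 deposited count tables, and all 10 are among the 55377 rows of each table and among the 14683 genes with enough counts to be tested. Deptor was chosen by its measured fold change in these same libraries, and the other 9 were taken as its pathway. Member values in this comparison are therefore a description and carry no test.

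The libraries came from primary mouse articular chondrocytes, the matrix-making cells of joint cartilage. They had received Irf1 siRNA (3 libraries) or Control siRNA (3 libraries), and RNA was taken 36 h after transfection. The targeted gene, Irf1, codes for an interferon-induced transcription factor. The labels state neither the siRNA sequences nor the origin of the replicates. Every p-value therefore reflects variation among these 6 libraries, which need not be variation among animals or cultures.

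The mTOR kinase works in a pair of complexes. mTOR complex 1, built around the scaffold Raptor, joins growth factor, energy and amino acid signals to protein synthesis and holds back autophagy, while mTOR complex 2, built around Rictor, phosphorylates AKT and related kinases. DEPTOR is a DEP-domain protein that binds mTOR in both complexes and inhibits it. In cartilage, mTOR complex 1 activity is known for its part in chondrocyte growth, and its inhibition by rapamycin is known to raise autophagy.

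Deptor carries the longest 3′ untranslated region (3′ UTR) of the 10 genes, with 7136 bases in the longest coding annotation. It was searched for 4 words of 7 bases on the transcript strand. One pair is ACTGATC together with the shifted word CTGATCA, which share 6 bases. The other pair is GCTATCT together with the shifted word CTATCTA, which likewise share 6 bases. The words were selected on the fold changes of these same libraries in an earlier look at the data, so their occurrence is a description and supports nothing. The windows below are printed 5′ to 3′ because they are all the places where a member's 3′ UTR holds one of the words. Capitals mark the word, and the number of bases is counted from the end of the coding sequence to the first base of the word.
Deptor, 103 bases: gatcttttctCTGATCAtatgcacctt
Deptor, 1132 bases: cgtgaaatatACTGATCgtgaaagcaa
Deptor, 3829 bases: ttgcatatgtGCTATCTtatttttaga
Deptor, 6403 bases: cacagagaccCTATCTAaaaactaatt
Deptor, 7048 bases: agtgtgatttGCTATCTttaataaaac
Mtor, 669 bases: aacataaatgCTGATCAcagagggaca
Ddit4, 540 bases: gttcgaggcaGCTATCTtacagactgc

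The sequences come from GENCODE release M21 transcripts, which describe GRCm38 and not the authors' build, GRCm39. In GRCm38 the Deptor windows lie in the 3′ UTR on the plus strand at chr15:55252228-55252254, chr15:55253257-55253283, chr15:55255954-55255980, chr15:55258528-55258554 and chr15:55259173-55259199. The Deptor gene (ENSMUSG00000022419.17) spans chr15:55112317-55259271 with 9 annotated exons. Mtor spans chr4:148448611-148557683 with 58 exons, and Ddit4 spans chr10:59949669-59951834 with 3. The Mtor window lies on the plus strand at chr4:148557519-148557545, and the Ddit4 window on the minus strand at chr10:59949980-59950006.

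Deptor thus held all 4 words, in 5 places, Mtor and Ddit4 held 1 each, and the 3′ UTRs of the other 7 members held none. A long 3′ UTR holds more words of any kind. Of 410 tested genes with a 3′ UTR within 25% of Deptor's length, 283 (69.0%) held at least 1 of the words, and 8 (1.95%) held all 4. At the shorter lengths of the Mtor and Ddit4 3′ UTRs, 226 of 1956 genes and 247 of 2020 genes held at least 1. Rptor held 3 words, Rictor 1 and Tsc2 1 in the coding sequence of the transcript taken. No siRNA sequence was used here, so a match between an siRNA and these windows was not tested.

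**Figure D1:**
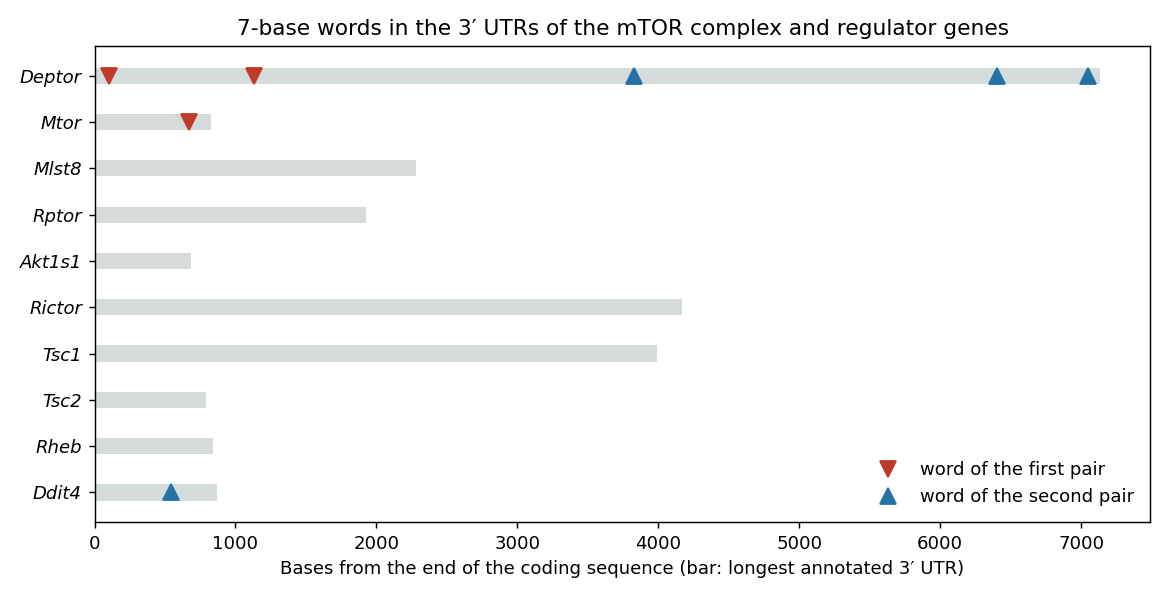
Positions of the words along the longest annotated 3′ UTR of each gene (grey bars, in bases from the end of the coding sequence). Downward red triangles mark ACTGATC or CTGATCA, and upward blue triangles mark GCTATCT or CTATCTA; Deptor has 5 marks along 7136 bases, Mtor and Ddit4 1 each, and the other 7 genes none.

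Total counts were 22349142, 26752065 and 23387622 in the Irf1 siRNA libraries and 28731426, 28565096 and 29282494 in the Control siRNA libraries. Levels below are CPM, which are counts scaled to a common library total. TMM factors were applied except in the levels of cell type markers, which are CPM over all counts without them. A gene is called where edgeR's quasi-likelihood test gives an adjusted p below 0.05 over all tested genes. Irf1 fell to 5.64, 5.09 and 6.02 CPM in Irf1 siRNA libraries, against 11.1, 12.6 and 12.2 CPM in Control siRNA libraries, which left 46.6% (edgeR adjusted p = 3e-06). All 9 chondrocyte markers were above 1 CPM in every library. Their summed level ranged from 90480 to 113300 CPM in Irf1 siRNA libraries and from 88820 to 111800 CPM in Control siRNA libraries, most of it Col2a1, the main cartilage collagen. Of the 9, 1 was called: Hapln1, the link protein of cartilage proteoglycan, had 870.5, 1013 and 884.1 CPM in Irf1 siRNA libraries, against 1805, 1895 and 1885 CPM in Control siRNA libraries. It fell by 1.04 on the log2 scale (edgeR adjusted p = 1.6e-08), so this chondrocyte marker moved with Deptor, and its part in Deptor's difference was not tested. In such bulk RNA, fewer cells of a type and less RNA per cell cannot be told apart.

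Deptor had 29.2, 35.4 and 32.6 CPM in Irf1 siRNA libraries, from 647, 976 and 763 counts. It had 84.8, 85.1 and 86.1 CPM in Control siRNA libraries, from 2378, 2400 and 2549 counts. Every Irf1 siRNA library was below every Control siRNA library, and the gap between the groups was wider than the range within either. The means were 32.4 ± 3.12 CPM in Irf1 siRNA libraries and 85.3 ± 0.649 CPM in Control siRNA libraries (SD, n = 3 each), a level 2.63-fold lower with Irf1 siRNA. The log2 fold change was -1.39 with a standard error of 0.07 and a 95% interval of -1.54 to -1.248, and 38.0% of the Control siRNA level was left. Of the 14683 tested genes, 28 had a lower log2 fold change than Deptor, and so did 12 of the 10458 tested genes averaging 5 CPM or more. The share left was 46.6% for Irf1 itself, and the 95% intervals of the log2 fold changes of both genes overlapped (-1.34 to -0.87 for Irf1).

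Deptor varied little among Control siRNA libraries, with a coefficient of variation of 0.760%, against a median of 4.32% over the 500 tested genes nearest to it in level. Among Irf1 siRNA libraries it varied by 9.64%, against a median of 5.46%. This direction was not particular to Deptor, since every member other than Tsc2 varied more among Irf1 siRNA libraries. Rptor, whose groups overlapped, varied by 1.20% in Control siRNA libraries and 13.1% in Irf1 siRNA libraries. Tsc2 went the other way, at 5.88% in Control siRNA libraries and 4.71% in Irf1 siRNA libraries. With 3 libraries a group, each of these values is only roughly known. Akt1s1 was the most variable member in Control siRNA libraries, at 12.5% in Irf1 siRNA libraries and 9.66% in Control siRNA libraries.

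The ratio of Deptor counts to Mtor counts within a library needs no scaling between libraries. It was 0.484, 0.534 and 0.494 in Irf1 siRNA libraries, against 1.297, 1.344 and 1.284 in Control siRNA libraries. Chondrocytes with Control siRNA thus gave more Deptor reads than Mtor reads in every library, and those with Irf1 siRNA gave fewer in every library. Counts of Deptor relative to Mlst8, the subunit that both complexes share, were 1.20, 1.58 and 1.55 in Irf1 siRNA libraries and 3.56, 3.83 and 3.98 in Control siRNA libraries, again with no overlap.

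Some markers of other cell types moved with Deptor. The 5 fibroblast markers, of which 3 were above 1 CPM in every library, summed to 2014 to 2251 CPM in Irf1 siRNA libraries and to 2721 to 3144 CPM in Control siRNA libraries. The 5 osteoblast markers, of which 3 were above 1 CPM in every library, summed to 2718 to 3333 CPM in Irf1 siRNA libraries and to 3751 to 4509 CPM in Control siRNA libraries. The collagen genes Col1a2 and Col1a1 made up most of these sums and fell by 0.53 and 0.51 on the log2 scale (edgeR adjusted p = 0.000123 and 0.00354). The other markers of these lists were not called or had too few counts to be tested. The fibroblast marker Pdgfra had a log2 fold change of 0.01 (edgeR adjusted p = 0.92) and the osteoblast factor Sp7 had -0.01 (edgeR adjusted p = 0.944). The part of such cells in Deptor's difference was not tested. The 5 macrophage markers, of which 1 was above 1 CPM in every library and Adgre1 was at 0 throughout, summed to 10.1 to 10.8 CPM in Irf1 siRNA libraries and to 7.56 to 10.3 CPM in Control siRNA libraries. Cd68 of this list rose by 0.40 on the log2 scale (edgeR adjusted p = 0.0316). The 5 skeletal muscle markers, of which Des rose by 0.43 (edgeR adjusted p = 0.0446), summed to 11.2 to 13.6 CPM in Irf1 siRNA libraries and to 11.7 to 13.01 CPM in Control siRNA libraries, and the 5 endothelial markers summed to at most 1.253 CPM in Irf1 siRNA libraries and 1.40 CPM in Control siRNA libraries.

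An overlapping gene had few counts beside Deptor. Gm9920 is the annotated gene whose exons overlap Deptor's, by 303 bases on the opposite strand, and it had 27 counts in all Irf1 siRNA libraries together and 33 in all Control siRNA libraries together. That is 0.618% of Deptor's counts. The nearest tested protein-coding genes on either side of Deptor were not called. Dscc1, a replication clamp loader subunit 21826 bases before it, had a log2 fold change of 0.02 (edgeR adjusted p = 0.943). Taf2, a subunit of the general transcription factor TFIID 40165 bases before Deptor, had -0.08 (edgeR adjusted p = 0.396). After Deptor, the fibril-associated collagen Col14a1, at 48479 bases, had -0.08 (edgeR adjusted p = 0.863). The 95% interval of Col14a1 was wider still, from -0.67 to 0.51, at a mean of 5.64 CPM in Control siRNA libraries. The mitochondrial ribosomal protein gene Mrpl13, at 274823 bases, had 0.05 (edgeR adjusted p = 0.637).

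**Figure D2:**
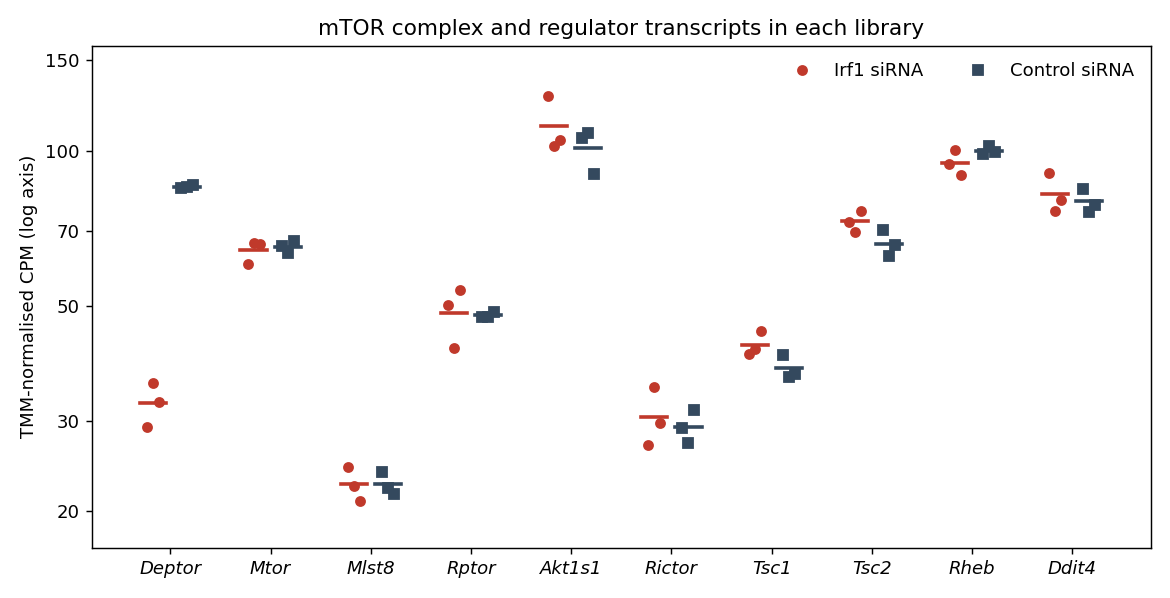
TMM-normalised CPM (log axis) of each gene in the 3 Irf1 siRNA libraries (red circles, left) and the 3 Control siRNA libraries (blue squares, right), with bars at the group means. The Deptor points of Irf1 siRNA libraries lie between 29.2 and 35.4 CPM and those of Control siRNA libraries between 84.8 and 86.1 CPM. The other 9 genes have group means that lie close together. As a ratio, the widest apart are those of Tsc1, at 42.1 and 37.9 CPM.

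Deptor was the 1 member called of 10, and it was chosen for that difference. Over all tested genes 22.4% were called, 12% lower and 10.4% higher, a balance that turned to 1853 higher and 1548 lower under upper-quartile scaling and to 1723 higher and 1469 lower with total counts alone. Nothing is read from the members' count against these shares. Deptor and Tsc1 were the 2 members of 10 whose groups did not overlap, against 38.1% of all tested genes. By edgeR, 0 of the 9 other members were called, 2 of 9 (Tsc1 and Tsc2) had an unadjusted p below 0.05, and DESeq2 called 0 of 9. Over all tested genes 5043 (34.3%) had an unadjusted p below 0.05. The log2 fold changes of these 9 ran from -0.08 to 0.15, with a median absolute value of 0.07, against 0.16 over all tested genes. Their 95% intervals reached from -0.20 to 0.33, so that levels up to 1.26-fold higher or 1.15-fold lower with Irf1 siRNA lay within at least 1 of them.

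The plot of fold changes shows Deptor apart from the other members. Among those, Tsc1 and Tsc2 had intervals just above 0, and the other 7 intervals included 0.

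**Figure D3:**
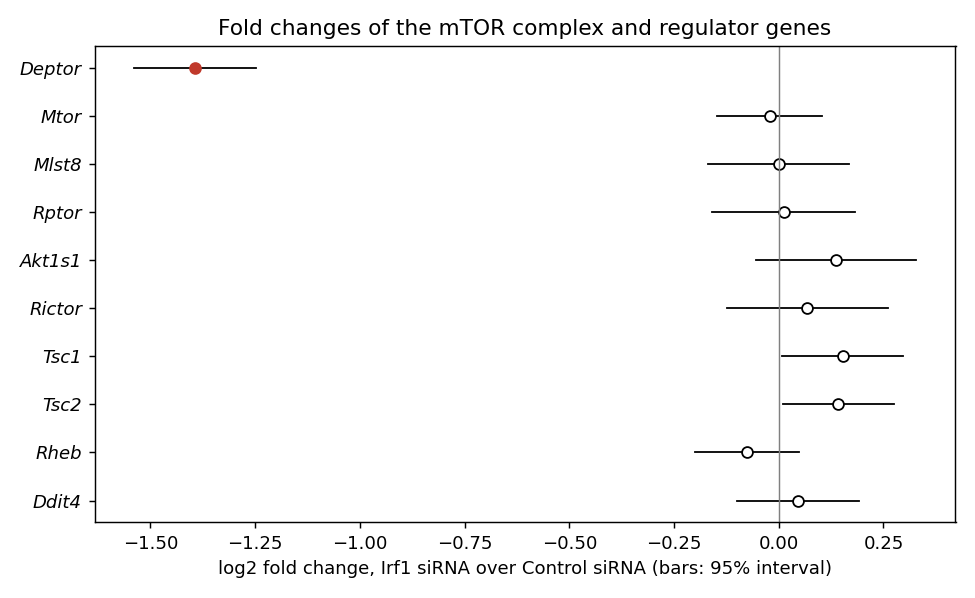
log2 fold change of Irf1 siRNA over Control siRNA for each gene, with bars for the 95% interval; the filled red point is called and the open points are not. Deptor sits at -1.39 and the other 9 genes lie between -0.08 and 0.15.

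Mtor, the catalytic subunit of both complexes, had 60.3, 66.4 and 66.0 CPM in Irf1 siRNA libraries, against 65.4, 63.3 and 67.0 CPM in Control siRNA libraries. The groups overlapped, and the log2 fold change was -0.02 with a 95% interval of -0.15 to 0.10. Mlst8, which binds the kinase domain in both complexes, had 24.3, 22.4 and 21.0 CPM in Irf1 siRNA libraries, against 23.8, 22.2 and 21.6 CPM in Control siRNA libraries. Both group means were 22.6 CPM, with an interval of -0.17 to 0.17 on the log2 scale. Mlst8 shares 997 exon bases with Bricd5 on the opposite strand, which had 13 counts over the Irf1 siRNA libraries and 16 over the Control siRNA libraries. The core that DEPTOR binds therefore differed by less than the spread between libraries at the transcript level.

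Rptor encodes Raptor, which brings substrates to mTOR complex 1. It had 50.3, 41.4 and 53.8 CPM in Irf1 siRNA libraries, against 47.7, 47.7 and 48.7 CPM in Control siRNA libraries. Its log2 fold change was 0.01 (95% interval -0.16 to 0.18), and Irf1 siRNA replicate 2 was the lowest library of all 6. Akt1s1 encodes PRAS40, an inhibitory partner of Raptor. It had 127.7, 102.2 and 105.1 CPM in Irf1 siRNA libraries, against 106.0, 108.2 and 90.2 CPM in Control siRNA libraries. The groups overlapped, and the log2 fold change was 0.14 (95% interval -0.05 to 0.33). Akt1s1 shares 89 exon bases with Tbc1d17 on the opposite strand, which had 2843 counts over the Irf1 siRNA libraries and 2950 over the Control siRNA libraries.

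Rictor, the scaffold of mTOR complex 2, had 26.9, 34.8 and 29.7 CPM in Irf1 siRNA libraries, against 29.0, 27.1 and 31.4 CPM in Control siRNA libraries. Its log2 fold change was 0.07 (95% interval -0.12 to 0.26), and here Irf1 siRNA replicate 2 was the highest library of all 6. The ratio of Rptor to Rictor counts was 1.87, 1.19 and 1.81 in Irf1 siRNA libraries and 1.65, 1.76 and 1.55 in Control siRNA libraries, so the scaffold balance stood apart in that 1 library. The same library had the strongest tie between a gene's GC content and its deviation from its group mean, a Spearman correlation of -0.495 across 14653 genes, which are not independent replicates. In the other libraries that correlation ran from -0.339 to 0.380. The longest Rptor transcript is 56.5% GC and that of Rictor 42.5%, against a median of 49.6% over tested genes. The part of GC content in these deviations was not tested. Deptor, at 44.3% GC, was also highest of its group in that library.

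Upstream of mTOR complex 1, the TSC proteins switch off the small GTPase RHEB: TSC2 carries the GTPase-activating domain and TSC1 stabilises it. Tsc1 had 40.3, 41.3 and 44.8 CPM in Irf1 siRNA libraries, against 40.3, 36.5 and 36.9 CPM in Control siRNA libraries. The groups were separated only by 40.31 CPM in the lowest Irf1 siRNA library against 40.27 CPM in the highest Control siRNA library. Tsc2 had 72.9, 69.7 and 76.6 CPM in Irf1 siRNA libraries, against 70.3, 62.6 and 65.6 CPM in Control siRNA libraries, and these overlapped.

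The log2 fold changes were 0.15 for Tsc1 (95% interval 0.01 to 0.30) and 0.14 for Tsc2 (95% interval 0.01 to 0.27), and neither was called. The ratio of Tsc1 to Tsc2 counts was 0.577 ± 0.0212 in Irf1 siRNA libraries and 0.573 ± 0.0104 in Control siRNA libraries (SD, n = 3 each). Tsc2 shares 693 exon bases with Pkd1 on the opposite strand. Pkd1 had 13627 counts over the Irf1 siRNA libraries and 15399 over the Control siRNA libraries, more than the 5328 and 5680 of Tsc2. The strand setting of the authors' counting is not given in the sources used here, so reads of Tsc2 and Pkd1 in that stretch may not be told apart.

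Rheb, the GTPase that activates mTOR complex 1 at the lysosome, had 94.4, 100.7 and 89.8 CPM in Irf1 siRNA libraries, against 98.8, 102.1 and 99.6 CPM in Control siRNA libraries. The log2 fold change was -0.08 (95% interval -0.20 to 0.05), and the groups overlapped. Ddit4 encodes REDD1, a stress-induced inhibitor known to respond to hypoxia and DNA damage and to act through the TSC complex. It had 90.8, 76.4 and 80.5 CPM in Irf1 siRNA libraries, against 84.5, 76.3 and 78.8 CPM in Control siRNA libraries. The groups overlapped, with a log2 fold change of 0.05 (95% interval -0.10 to 0.19).

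Levels of different genes were compared as CPM per kilobase of merged annotated exon. In Control siRNA libraries the order of mean levels was Ddit4 (45.5), Akt1s1 (33.0), Rheb (12.97), Deptor (9.62), Tsc2 (6.88), Mtor (6.46), Mlst8 (5.09), Rptor (3.57), Tsc1 (3.20) and Rictor (1.72). Of neighbours in that order, Tsc2 and Mtor alone had overlapping ranges over the 3 libraries. Deptor was at 3.65 ± 0.352 per kilobase in Irf1 siRNA libraries and 9.62 ± 0.0731 in Control siRNA libraries (SD, n = 3 each). That placed it 7 of 10 in Irf1 siRNA libraries, where its range of 3.29 to 3.995 overlapped those of Rptor (3.08 to 3.99) and Tsc1 (3.41 to 3.79), against 4 of 10 in Control siRNA libraries.

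With the median length of coding transcripts in place of merged exons, an alternative chosen after seeing the data, Deptor kept these places in both groups. The order of other genes changed. The first 3 were then Akt1s1 (135.3 CPM per kilobase), Rheb (56.1) and Ddit4 (45.5) in Control siRNA libraries.

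**Figure D4:**
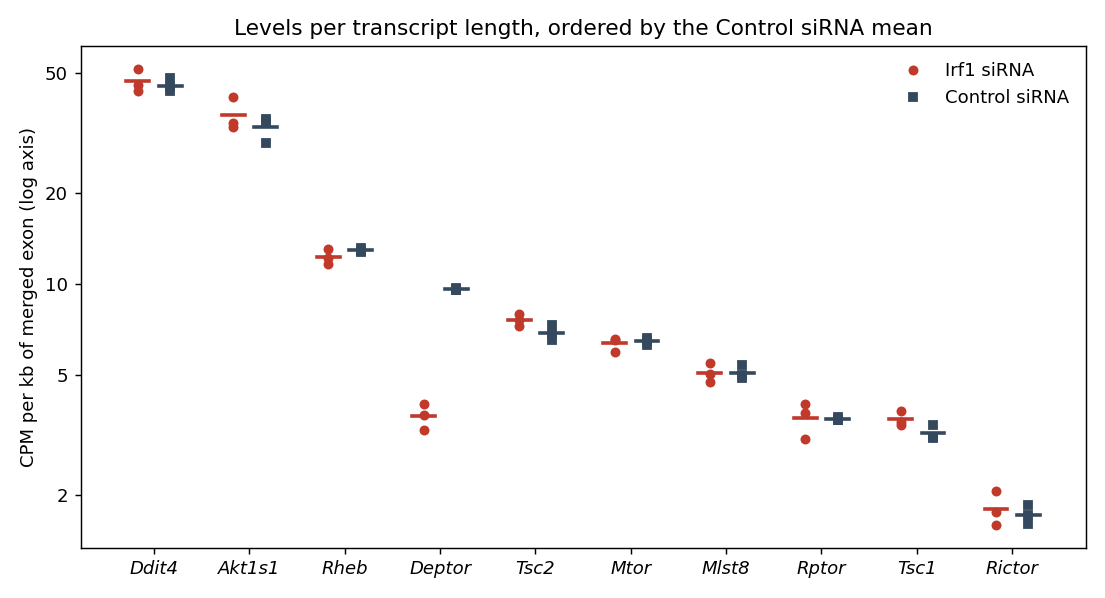
CPM per kilobase of merged exon (log axis) in the 3 Irf1 siRNA libraries (red circles, left) and 3 Control siRNA libraries (blue squares, right), with bars at the group means, ordered by the Control siRNA mean. Deptor lies at 3.65 in Irf1 siRNA libraries and 9.62 in Control siRNA libraries, level with Rptor and Tsc1 in the Irf1 siRNA libraries.

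The profile of Deptor over the 6 libraries, as log2 CPM centred on its own mean, was set against all tested genes averaging 5 CPM or more. The 5 smallest Euclidean distances were those of Cnn2 (0.213), Sfrp1 (0.221), Hspb11 (0.239), Armcx1 (0.258) and Ppib (0.259). Cnn2 encodes an actin-binding calponin, Sfrp1 a secreted Wnt antagonist and Ppib an endoplasmic reticulum prolyl isomerase that works on collagen. Cnn2 had 104.0, 111.0 and 110.8 CPM in Irf1 siRNA libraries, against 284.3, 318.2 and 316.6 CPM in Control siRNA libraries. All 5 were lower with Irf1 siRNA, as a profile like Deptor's requires, with log2 fold changes from -1.496 to -1.295. Their 3′ UTRs held between 1 and 4 of the word matches searched for above. At least 1 word was held by 2712 of 12824 tested genes with a 3′ UTR. The words were picked on these same fold changes, so nothing is read from their presence in genes that fell like Deptor.

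Holding all 4 words did not go with one size of difference. Over the tested genes, 19 held all 4 in the 3′ UTR, of which 9 were called lower and the other 10 were not called. Of all tested genes 12% were called lower. The 3′ UTRs of the 19 ran from 1934 to 122583 bases, against a median of 1211 bases over all tested genes with a 3′ UTR. Deptor had the second lowest log2 fold change of the 19, after Lrrc3 at -1.70. The highest was Kdm7a, a histone demethylase gene, at 0.19. Both genes were named after their values were seen, and these counts use the fold changes that picked the words.

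The rest of the pathway was followed in 121 other genes, of which 120 had enough counts. By edgeR 13 were called higher and 17 lower, which is 25% of those tested against 22.4% of all tested genes. The lists below hold 7 to 30 genes each, and nothing is read from the count of a list against that share. The median log2 fold change of the 120 was -0.01, against 0.00 over all tested genes. The plot of pathway genes by list shows that none of them reached Deptor's log2 fold change.

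The 7 genes of a list for the turnover of the DEPTOR protein were not called. They encode the ubiquitin ligase that recognises phosphorylated DEPTOR (Btrc, Fbxw11, Cul1, Skp1, Rbx1), the kinase that primes it (Csnk1a1) and a deubiquitinase (Otub1). By edgeR 0 of 7 were called, 1 of 7 (Rbx1) had an unadjusted p below 0.05, and DESeq2 called 0 of 7. Over all tested genes edgeR called 22.4%, and 34.35% had an unadjusted p below 0.05. The log2 fold changes ran from -0.11 for Btrc to 0.14 for Rbx1. Btrc had 25.2, 25.6 and 25.2 CPM in Irf1 siRNA libraries, against 28.3, 27.1 and 26.5 CPM in Control siRNA libraries (edgeR adjusted p = 0.283).

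Of 9 other subunits, assembly factors and close relatives of the members, among them Mapkap1 and Prr5 of mTOR complex 2 and Tti1 and Telo2 of the assembly machinery, 0 were called by edgeR and 0 by DESeq2. None of the 9 had an unadjusted edgeR p below 0.05, 1 had an unadjusted DESeq2 p below 0.05, and 1 was called higher by edgeR without the count filter. The median log2 fold change of these 9 was -0.07. By edgeR, 22.4% of all tested genes were called and 34.35% had an unadjusted p below 0.05.

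The AMPK list holds the energy-sensing kinase that restrains mTOR complex 1 and its activator LKB1. It had 2 genes higher and 3 lower of 13 (38.5%), against 22.4% of all tested genes called. The catalytic subunits moved in opposite directions. Prkaa2, which encodes the alpha2 catalytic subunit, had 7.77, 10.5 and 10.1 CPM in Irf1 siRNA libraries, against 20.2, 21.2 and 20.2 CPM in Control siRNA libraries. Its log2 fold change was -1.11 with a standard error of 0.10 (edgeR adjusted p = 1.5e-06). Prkaa1, which encodes the alpha1 catalytic subunit, had 44.9, 52.9 and 50.6 CPM in Irf1 siRNA libraries, against 33.2, 35.5 and 40.9 CPM in Control siRNA libraries, a log2 fold change of 0.44 (SE 0.08, edgeR adjusted p = 0.00123). Both pairs of groups were without overlap. The ratio of these genes was not tested.

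Among the regulatory AMPK subunits, Prkab2 fell by 0.38 on the log2 scale (edgeR adjusted p = 0.00152) and Prkab1 by 0.23 (edgeR adjusted p = 0.0288), while Prkag2 rose by 0.29 (edgeR adjusted p = 0.034). The Prkab1 call ended without Irf1 siRNA replicate 2 or 3 and without Control siRNA replicate 1 or 2, with edgeR adjusted p from 0.0637 to 0.136. The Prkag2 call ended without any 1 of these libraries or Irf1 siRNA replicate 1, with edgeR adjusted p from 0.0578 to 0.143, and DESeq2 gave it an adjusted p of 0.0832.

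In the list of translation control downstream of mTOR complex 1, 2 genes were higher and 3 lower of 19. That is 26.3%, against 22.4% of all tested genes. Eif4g2 encodes DAP5, an initiation factor related to eIF4G that does not bind the cap-binding protein. It had 572.9, 645.7 and 596.7 CPM in Irf1 siRNA libraries, against 1234, 1322 and 1324 CPM in Control siRNA libraries. It fell by 1.10 on the log2 scale with a standard error of 0.06 (edgeR adjusted p = 1.05e-08), and the groups did not overlap. Pdcd4, an inhibitor of the eIF4A helicase and a substrate of S6 kinase, had 48.0, 43.2 and 44.1 CPM in Irf1 siRNA libraries, against 70.2, 75.3 and 62.5 CPM in Control siRNA libraries. It fell by 0.62 on the log2 scale (edgeR adjusted p = 1.76e-05).

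Lpin1, a phosphatidate phosphatase under mTOR control, rose by 0.32 on the log2 scale (edgeR adjusted p = 0.00495). Rps6, the ribosomal protein that S6 kinase phosphorylates, rose by 0.24 (edgeR adjusted p = 0.0248), and the S6 kinase gene Rps6kb2 fell by 0.27 (edgeR adjusted p = 0.0159). The Rps6 call ended without Irf1 siRNA replicate 1 or Control siRNA replicate 2, with edgeR adjusted p of 0.0953 and 0.141. The Rps6kb2 call ended without Irf1 siRNA replicate 3 or Control siRNA replicate 2, with edgeR adjusted p of 0.0502 and 0.0748. Rps6 has many near-identical pseudogenes, and how the authors' counting split such reads is not given in the sources used here.

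**Figure D5:**
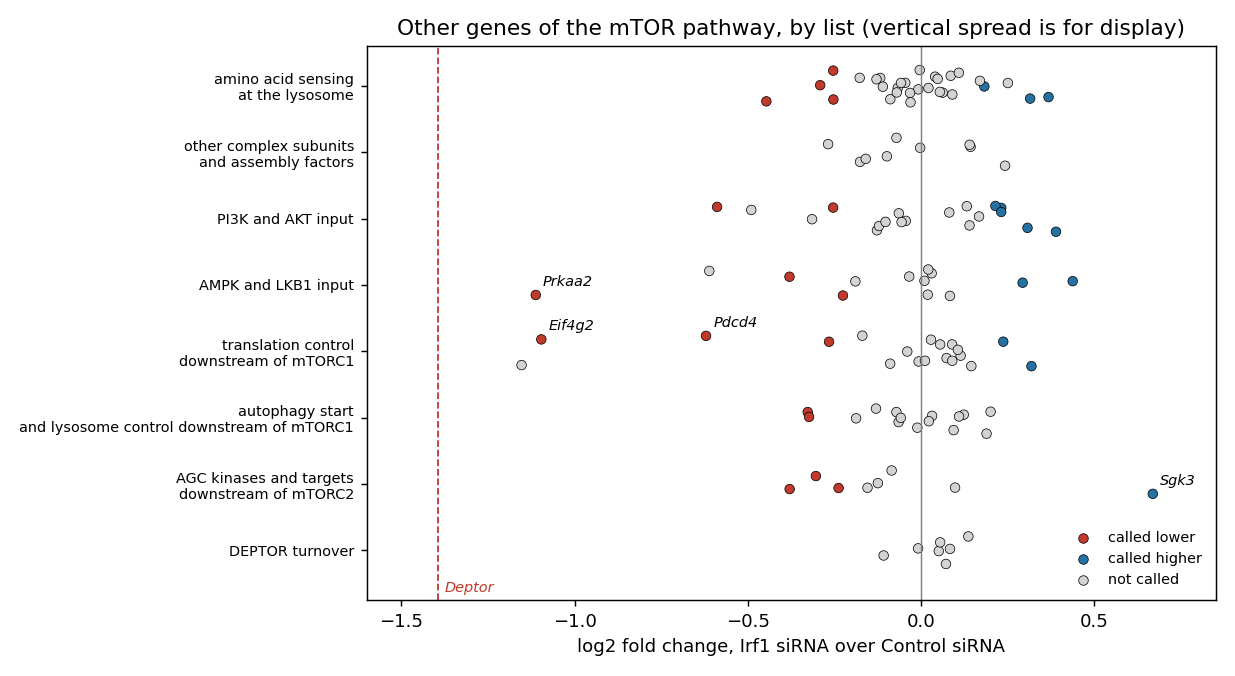
log2 fold change of Irf1 siRNA over Control siRNA for the 120 other pathway genes, by list; red points are called lower, blue points called higher and grey points not called, and the vertical spread within a list is for display. The dashed line marks Deptor at -1.39; the points nearest to it are the uncalled low-count gene Eif4ebp3 at -1.15, Prkaa2 at -1.11 and Eif4g2 at -1.10, and Sgk3 at 0.67 lies farthest to the right.

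Downstream of mTOR complex 2, 1 gene was higher and 3 lower of 8 tested (50%), against 22.4% of all tested genes called. Sgk3, a kinase of the AGC family that can act beside AKT, had 37.7, 40.3 and 39.2 CPM in Irf1 siRNA libraries, against 23.6, 25.2 and 24.9 CPM in Control siRNA libraries. It rose by 0.67 on the log2 scale with a standard error of 0.07 (edgeR adjusted p = 3.5e-06), the largest rise among the pathway genes. Ndrg1, whose protein is phosphorylated by SGK kinases, had 178.7, 161.8 and 161.0 CPM in Irf1 siRNA libraries, against 224.7, 222.1 and 205.2 CPM in Control siRNA libraries, and fell by 0.38 (edgeR adjusted p = 0.000358). Prkca, a protein kinase C gene, fell by 0.30 (edgeR adjusted p = 0.00192), and Foxo1, a transcription factor that AKT inactivates, fell by 0.24 (edgeR adjusted p = 0.00778).

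The input through PI3K and AKT had 5 genes higher and 2 lower of 19 (36.8%), against 22.4% of all tested genes called. Pik3r2, a regulatory subunit of PI3K, had 86.9, 70.1 and 78.2 CPM in Irf1 siRNA libraries, against 60.9, 62.3 and 56.1 CPM in Control siRNA libraries. It rose by 0.39 on the log2 scale (edgeR adjusted p = 0.00138). The receptor genes moved apart: Insr rose by 0.31 (edgeR adjusted p = 0.0039) and Igf1r fell by 0.25 (edgeR adjusted p = 0.00527).

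The catalytic subunit gene Pik3ca and the AKT-activating kinase gene Pdpk1 each rose by 0.23 on the log2 scale (edgeR adjusted p = 0.00939 and 0.0117), and Pik3r3, another regulatory subunit, fell by 0.59 (edgeR adjusted p = 0.0132). Pik3r1, named after its value was seen, rose by 0.21 (edgeR adjusted p = 0.0202). The calls of these 4 genes ended without Control siRNA replicate 2, with edgeR adjusted p from 0.0536 to 0.0697. Without Irf1 siRNA replicate 3 the calls of Pdpk1, Pik3r3 and Pik3r1 ended, with edgeR adjusted p from 0.0693 to 0.0809. The Pik3r1 call also ended without Irf1 siRNA replicate 2 (edgeR adjusted p = 0.0514) or Control siRNA replicate 1 (edgeR adjusted p = 0.0989).

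Amino acid sensing at the lysosome, where the Rag GTPases bring mTOR complex 1 to RHEB, had 3 genes higher and 4 lower of 30. That is 23.3%, against 22.4% of all tested genes. Sesn3, a sestrin and so a stress-linked inhibitor of this branch, had 61.7, 68.1 and 64.8 CPM in Irf1 siRNA libraries, against 96.4, 84.4 and 84.5 CPM in Control siRNA libraries. It fell by 0.45 on the log2 scale (edgeR adjusted p = 0.000166). Fnip2, a partner of folliculin, fell by 0.29 (edgeR adjusted p = 0.0035), and the Rag GTPase gene Rraga fell by 0.25 (edgeR adjusted p = 0.00609). Lamtor4, a subunit of the Ragulator that anchors the Rags, rose by 0.37 (edgeR adjusted p = 0.00749), and Flcn, the folliculin gene, rose by 0.31 (edgeR adjusted p = 0.00867).

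Nprl3, a subunit of the inhibitory GATOR1 complex, fell by 0.25 on the log2 scale (edgeR adjusted p = 0.029). Its call ended without Irf1 siRNA replicate 2 or 3 or Control siRNA replicate 1 or 2, with edgeR adjusted p from 0.0547 to 0.145. Lamtor3, another Ragulator subunit named after its value was seen, rose by 0.18 (edgeR adjusted p = 0.0404). Its call ended without any 1 library other than Control siRNA replicate 3 (edgeR adjusted p from 0.075 to 0.145) and under DESeq2 (adjusted p = 0.0711).

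Of 15 genes that start autophagy or control lysosome genes, 0 were called higher and 2 lower by edgeR, against 4 with an unadjusted p below 0.05 in either direction and 1 called by DESeq2. The count called higher was 1 under upper-quartile scaling, total counts, a minimum mean of 5 CPM, the replicate block and without Irf1 siRNA replicate 2. Of all tested genes, edgeR called 22.4% in the main fit, and 34.35% had an unadjusted p below 0.05. Rb1cc1, which encodes the FIP200 scaffold of the ULK1 complex, had 33.7, 37.4 and 32.3 CPM in Irf1 siRNA libraries, against 43.0, 44.4 and 42.5 CPM in Control siRNA libraries. It fell by 0.33 on the log2 scale (edgeR adjusted p = 0.00288). Atg14, a subunit of the lipid kinase complex of autophagy, fell by 0.32 (edgeR adjusted p = 0.0288). That call ended without any 1 of the Irf1 siRNA libraries or without Control siRNA replicate 2, with edgeR adjusted p from 0.057 to 0.134, and under DESeq2 (adjusted p = 0.0739).

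The same words were looked up in the pathway genes, again as a description with words that these fold changes picked. They were in the 3′ UTRs of 9 of 17 genes called lower, 0 of 13 called higher and 25 of 90 not called, against 2712 of 12824 tested genes with a 3′ UTR. The 3′ UTRs differed in length, with medians of 3224 bases in the genes called lower, 1955 bases in those called higher and 1623.5 bases in those not called. Among tested genes with a 3′ UTR within 25% of the length of Prkaa2's, 382 of 589 (64.9%) held at least 1 word. For the length of Eif4g2's, 547 of 1026 (53.3%) did. Of the pathway genes called lower, Prkaa2 and Eif4g2 fell most and held the windows printed here, with capitals for the words as before, since they allow comparison with those of Deptor.
Prkaa2, 3070 bases: caaaattgaaGCTATCTcaaagtaaat
Eif4g2, 577 bases: cttgcacaaaACTGATCAgtttgagaga
In GRCm38 these windows lie on the minus strand at chr4:105033006-105033032 and chr7:111072098-111072125. In the Eif4g2 window the words of the first pair overlap by 6 bases and together span the 8 capitals.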

How the data were processed

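For each library the authors deposited unnormalised counts per gene, keyed by symbol and Ensembl identifier. The tools used were Trimmomatic 0.39, FastQC and STAR, with GRCm39 as the build, per the submitters' processing notes. The kit was stranded and selected mRNA, per the labels' protocols. Counting tool, annotation release and strand setting: not given in the sources used here.

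The counts were tested over all genes kept by filterByExpr in R 4.3.3 with edgeR 4.0.16: TMM scaling, robust quasi-likelihood F test, group as the only term, two-sided, Benjamini-Hochberg adjustment, 3 libraries against 3. DESeq2 1.42.0, other scalings and filters, a replicate block and leaving out each library were alternatives. The code was tested on simulated data. The members, lists and words were chosen with earlier results of these data known. Named pathway genes were those called, up to 6 a list by smallest p. Replicate numbers were not used as pairs in the main fit. Correlations of same-numbered deviations from group means were 0.18, -0.04 and 0.05, against -0.21 to 0.17 between differently numbered libraries. So few correlations cannot show whether the numbers mark pairs. GENCODE M21 (GRCm38) gave lengths and sequences by identifier, for 52044 of 55377 rows and all 10 members. For each gene the coding transcript with the longest 3′ UTR was searched.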

Additional observations from a re-analysis of the deposited data

How the results depend on the processing

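Deptor's log2 fold change stayed between -1.47 and -1.33 when 1 library at a time was left out, and was -1.37 under upper-quartile scaling and -1.41 without the count filter. Member values were recomputed over 13 alternatives (130 values), and 0 of the other 9 members were called in any. With 1 library left out, the log2 fold changes of Mtor, Rptor, Rictor, Mlst8 and Ddit4 lay on both sides of 0. Rptor then ran from -0.07 to 0.12 and Rictor from -0.04 to 0.15. With a replicate block Deptor was at -1.40, the genes called were 1744 higher and 1984 lower, against 1522 and 1767 without it, and the other pathway genes were 13 higher and 18 lower. The block ended the call of Lamtor3 (edgeR adjusted p = 0.0523) among the named pathway genes. Leaving out 1 library gave 959 to 1398 genes called higher, with 959 without Irf1 siRNA replicate 3 and 980 without Control siRNA replicate 2. Pathway genes called higher then numbered 7 to 13, with 7 without Control siRNA replicate 2. Of 30 named pathway genes, 19 were called under every alternative and 11 lost the call in at least 1, among them Prkab1 under upper-quartile scaling (edgeR adjusted p = 0.0504), and Prkag2 and Lamtor3 without the count filter (0.0649 and 0.103). Limits are 3 libraries a group of unstated origin, an annotation of another build, unknown counting strand, and transcript levels that do not show protein or kinase activity.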
